A study of Mus musculus with 91 samples.

Results

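10 genes of the endoplasmic reticulum (ER) stress response, of 14355 genes measured, were followed over the day in the D1 and D2 neurons of the mouse nucleus accumbens. They were taken by Ensembl identifier from a list of ER chaperones and unfolded protein response genes, and all 10 were present. Samples came from male and female mice over 10 weeks old, kept on 12 h of light and 12 h of darkness, and collected at ZT 2, 6, 10, 14, 18 and 22, where ZT counts hours from lights on. All mice carried RiboTag, a ribosomal protein (Rpl22) that gains a hemagglutinin (HA) tag where Cre is active, and tagged ribosomes were pulled down so that the mRNA bound to them could be sequenced. Drd1-Cre marked D1 neurons (23 female and 22 male libraries), and A2a-Cre marked D2 neurons (23 female and 23 male libraries). Each library pooled tissue of 2 mice, and each of the 24 combinations of cell type, sex and time held 3 or 4 libraries. Cell type and Cre line cannot be told apart, and the labels name the tissue and cell type but were not checked against marker genes, because the table holds identifiers without names.

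The ER folds secreted and membrane proteins. When unfolded proteins build up there, 3 sensors in its membrane are triggered in the general scheme of the unfolded protein response: IRE1 splices the mRNA of Xbp1 into the form that encodes an active transcription factor, ATF6 is cut to release another, and PERK slows translation. Both transcription factors raise chaperones and folding enzymes, many of them through the ER stress element, a promoter sequence made of CCAAT and CCACG 9 bases apart. In neurons this machinery serves the heavy traffic of receptors, channels and neuropeptides. Gene counts as used here do not separate the spliced from the unspliced form of Xbp1.

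The members are given by role with their identifiers. Xbp1 (ENSMUSG00000020484) is the transcription factor of the set. Hspa5 (ENSMUSG00000026864), also called BiP, is the ER Hsp70 chaperone that also holds the sensors inactive, Hsp90b1 (ENSMUSG00000020048) is the ER Hsp90, and Hyou1 (ENSMUSG00000032115) is a large Hsp70 relative that exchanges the nucleotide of Hspa5. Calr (ENSMUSG00000003814), calreticulin, is a lectin chaperone and calcium store. Pdia4 (ENSMUSG00000025823) and Pdia6 (ENSMUSG00000020571) are protein disulfide isomerases. Sdf2l1 (ENSMUSG00000022769) is a cofactor of the Hspa5 system, Manf (ENSMUSG00000032575) is a secreted ER protein with neurotrophic activity, and Creld2 (ENSMUSG00000023272) is an ER-stress-induced secreted factor.

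The ER stress element is shown for the members whose promoters carry it, because it is the shared sequence of the response these genes belong to. RefSeq promoters (GRCm38.p6) were at hand for 8 of the 10 members, that is for all but Manf and Hyou1. CCAAT followed by 9 bases and CCACG, on either strand and within the 250 bases before the start, was found in 5 of these 8, against 37 of 32851 promoters in the table (0.113%). Each stretch below is given 5′ to 3′ on the gene's own strand, with the match and 25 bases on each side, and capitals mark the match.

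Hspa5, chr2:34772000-34772068, + strand: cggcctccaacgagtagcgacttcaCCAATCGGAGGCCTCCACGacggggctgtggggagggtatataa
Hsp90b1, chr10:86705508-86705681, - strand: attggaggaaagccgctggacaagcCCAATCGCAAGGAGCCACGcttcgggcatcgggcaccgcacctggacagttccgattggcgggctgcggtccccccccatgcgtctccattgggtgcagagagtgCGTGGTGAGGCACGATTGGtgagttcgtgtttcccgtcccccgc
Calr, chr8:84847050-84847118, - strand: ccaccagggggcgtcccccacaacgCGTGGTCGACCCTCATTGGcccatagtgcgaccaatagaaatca
Pdia6, chr12:17266466-17266534, + strand: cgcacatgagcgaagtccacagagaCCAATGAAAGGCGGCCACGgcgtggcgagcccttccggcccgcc
Creld2, chr15:88819495-88819563, + strand: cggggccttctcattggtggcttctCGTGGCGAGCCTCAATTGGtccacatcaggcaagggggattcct

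Hsp90b1 held 2 matches, 1 in each direction. The match ran with the gene in Hspa5 and Pdia6 and against it in Calr and Creld2, where the same letters read as CGTGG, 9 bases, ATTGG. Counted back from the start, the matches lay from base 65 to 47 in Hspa5, 212 to 194 and 107 to 89 in Hsp90b1, 162 to 144 in Calr, 98 to 80 in Pdia6 and 126 to 108 in Creld2. A second form of the element, ATTGG, 1 base, CCACG, was in 0 of the 8 windows and in 0.0304% of all promoters. TGACGTGG, the core that XBP1 is known to bind, was in 0 of the 8 and in 0.563% of all promoters. These are matches of letters in 1 window per gene.

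Total counts ran from 6872165 to 24665262 per library. The 3 D1 male libraries B at ZT10, B at ZT22 and D at ZT18 had 205 to 789 genes at a count of 0, against 0 to 3 in the other 88, and values that they move are given with and without them. Libraries carry a letter from A to E in their titles, whose meaning the labels do not state. In D2 neurons, libraries of the same letter deviated together from their group means, so counts of calls in D2 neurons are also given from a fit that blocks on the letter. Levels are given as CPM, counts scaled to the library's TMM-adjusted total, which do not account for gene length and so do not rank the members against each other. The sources do not say whether libraries of a group are biologically independent beyond their pooled mice, so p-values measure the spread between these libraries.

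In D2 neurons all 10 members had their highest mean at ZT18, in the dark phase, and their lowest at ZT6 (7 members) or ZT10 (Hsp90b1, Calr and Hyou1). With the letter as a block, 9 of the 10 were rhythmic at an adjusted p under 0.05 (edgeR), against 22.3% of all genes. Without the block none passed, against 2.94% of all genes, and 6 of 10 had an unadjusted p under 0.05, against 13.1%. The fitted amplitude (log2, mean to peak) had a median of 0.22 over the members and 0.07 over all genes without the block, and 0.21 and 0.07 with it. All 10 fitted peaks fell between ZT16 and ZT20 with or without the block, apart from that of Calr with the block, at ZT20.1. The share of all genes with a peak in that window is not given here, so this count describes the members alone.

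**Figure D1:**
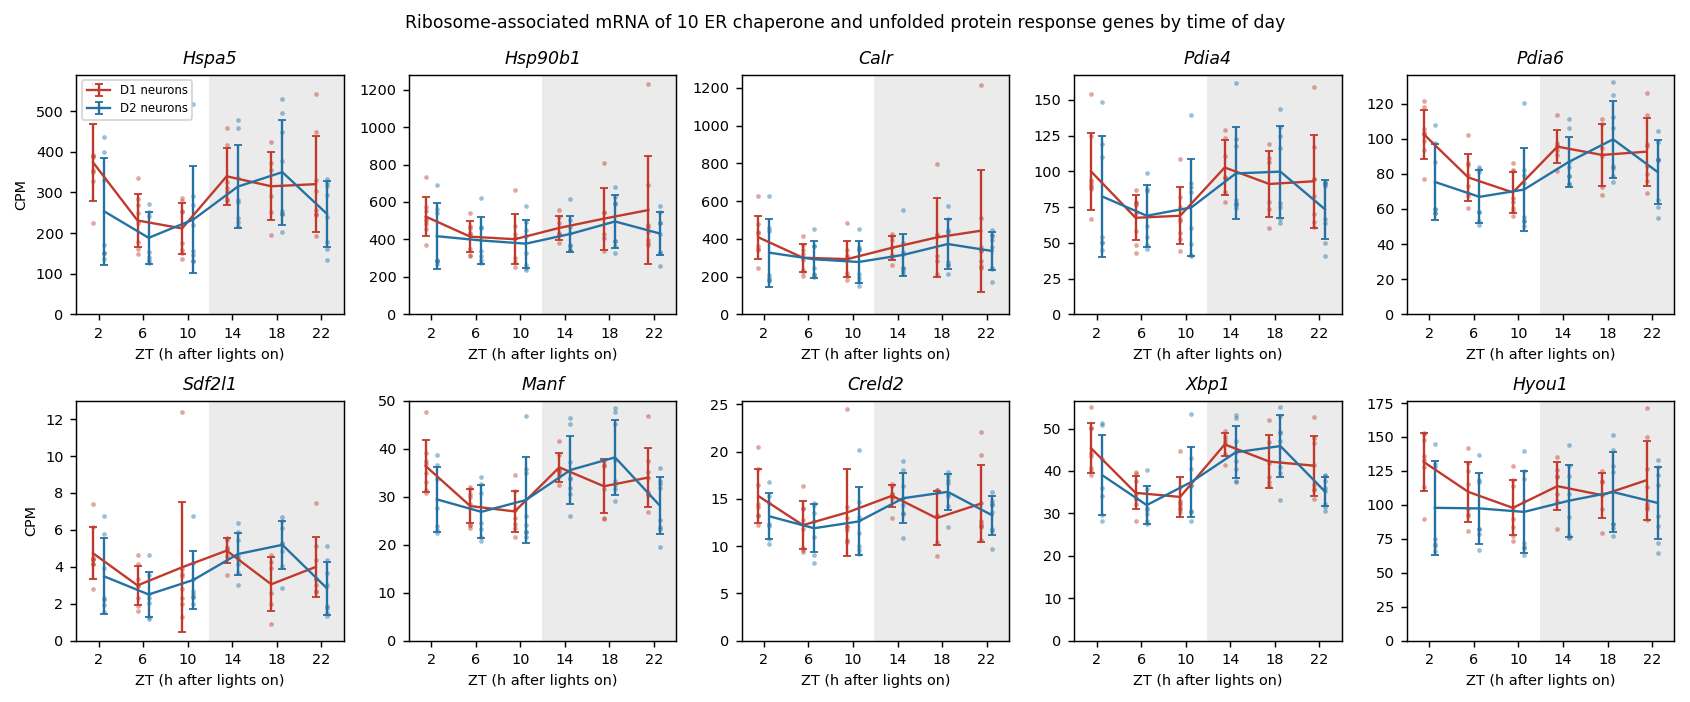
Level of each member in CPM (linear axis from 0) against ZT in hours, with D1 libraries in red and D2 libraries in blue. Points are single libraries, lines join the means and bars are SD over 6 to 8 libraries; grey marks the dark phase. Hspa5 in D2 neurons has its lowest mean at ZT6 (188 CPM) and its highest at ZT18 (350 CPM), and in D1 neurons its lowest at ZT10 (211 CPM) and its highest at ZT2 (374 CPM).

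Xbp1 in D2 neurons ran from 27.5 to 40.1 CPM at ZT6 (median 30.7, n = 7), from 37.4 to 53.2 CPM at ZT14 (median 43.5, n = 8) and from 33.2 to 55.02 CPM at ZT18 (median 48.1, n = 8). At ZT22 it had returned to between 30.7 and 39.1 CPM (median 35.6, n = 8). The ZT6 and ZT14 libraries overlapped only between 37.4 and 40.1 CPM, and those of ZT18 and ZT22 between 33.2 and 39.1 CPM. The fit gave an amplitude of 0.21 (SE 0.055) with a peak at ZT16.4 (SE 0.983 h), a 1.34-fold change from trough to peak (edgeR adjusted p = 0.0563, and 5.17e-04 with the block). Taken letter by letter, the amplitude lay between 0.15 and 0.24 and the peak between ZT16.1 and ZT16.9.

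Hspa5 in D2 neurons ran from 125 to 271 CPM at ZT6 (median 153, n = 7), from 219 to 478 CPM at ZT14 (median 279, n = 8) and from 203 to 531 CPM at ZT18 (median 316, n = 8). These ranges overlapped. The amplitude was 0.37 (SE 0.121), peak ZT17.3, a 1.67-fold change from trough to peak (edgeR adjusted p = 0.191, and 1.87e-05 with the block, where the SE was 0.0548). Within single letters the amplitude was 0.25 to 0.46 and the peak ZT16.2 to ZT18.6, so each letter gave a peak in the dark phase.

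The other ER chaperones had smaller amplitudes than Hspa5, a difference between genes that was not tested. Hsp90b1 had D2 means of 377 ± 128 CPM at ZT10 and 496 ± 140 CPM at ZT18 (SD, n = 8 each), with an amplitude of 0.16 and a peak at ZT18.9 (edgeR adjusted p = 0.751, and 0.00451 with the block). Calr had means of 277 ± 111 and 372 ± 134 CPM at the same times (SD, n = 8 each), an amplitude of 0.18 and a peak at ZT19.9 (edgeR adjusted p = 0.853, and 0.0166 with the block). Hyou1 was the member that was not called with the block: its D2 means lay between 94.8 and 109 CPM at all 6 times, with an amplitude of 0.09 (edgeR adjusted p = 1, and 0.0699 with the block).

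Both disulfide isomerases had their highest D2 mean at ZT18. Pdia6 lay between 50.7 and 84.0 CPM at ZT6 (median 58.2, n = 7) and between 75.5 and 132 CPM at ZT18 (median 95.2, n = 8), with an amplitude of 0.26 and a peak at ZT17.9 (edgeR adjusted p = 0.0827, and 6.77e-06 with the block). The lowest library at ZT18 was thus within the upper part of the ZT6 range. Pdia4 had means of 68.9 ± 21.6 CPM at ZT6 (SD, n = 7) and 99.8 ± 32.2 CPM at ZT18 (SD, n = 8), with an amplitude of 0.24 (edgeR adjusted p = 0.54, and 0.00471 with the block).

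Among the cofactors and secreted members, Sdf2l1 had the largest relative swing in D2 neurons. It lay between 1.17 and 4.62 CPM at ZT6 (median 2.29, n = 7) and between 2.82 and 6.72 CPM at ZT18 (median 5.25, n = 8), an amplitude of 0.43 and a 1.81-fold change from trough to peak (edgeR adjusted p = 0.13, and 5.65e-04 with the block). Its counts were low, 9 to 148 per D2 library, which limits the precision of single values. Manf ran from 20.8 to 34.1 CPM at ZT6 (median 24.6, n = 7) and from 29.0 to 48.6 CPM at ZT18 (median 35.5, n = 8), an amplitude of 0.23 with a peak at ZT16.3 (edgeR adjusted p = 0.106, and 8.68e-05 with the block). Creld2 had means of 11.9 ± 2.56 CPM at ZT6 (SD, n = 7) and 15.7 ± 1.92 CPM at ZT18 (SD, n = 8), an amplitude of 0.18 with a peak at ZT17.1 (edgeR adjusted p = 0.168, and 0.0032 with the block).

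The blocked count in D2 neurons rested in part on letter D. Without it, 5 of 10 members passed (Hspa5, Pdia6, Sdf2l1, Manf and Xbp1), against 18.5% of all genes, and without letter C 8 passed, against 7.91%. With the 6 times as separate levels in place of a cosine, and the block, 8 of 10 passed, against 10.2% of all genes.

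**Figure D2:**
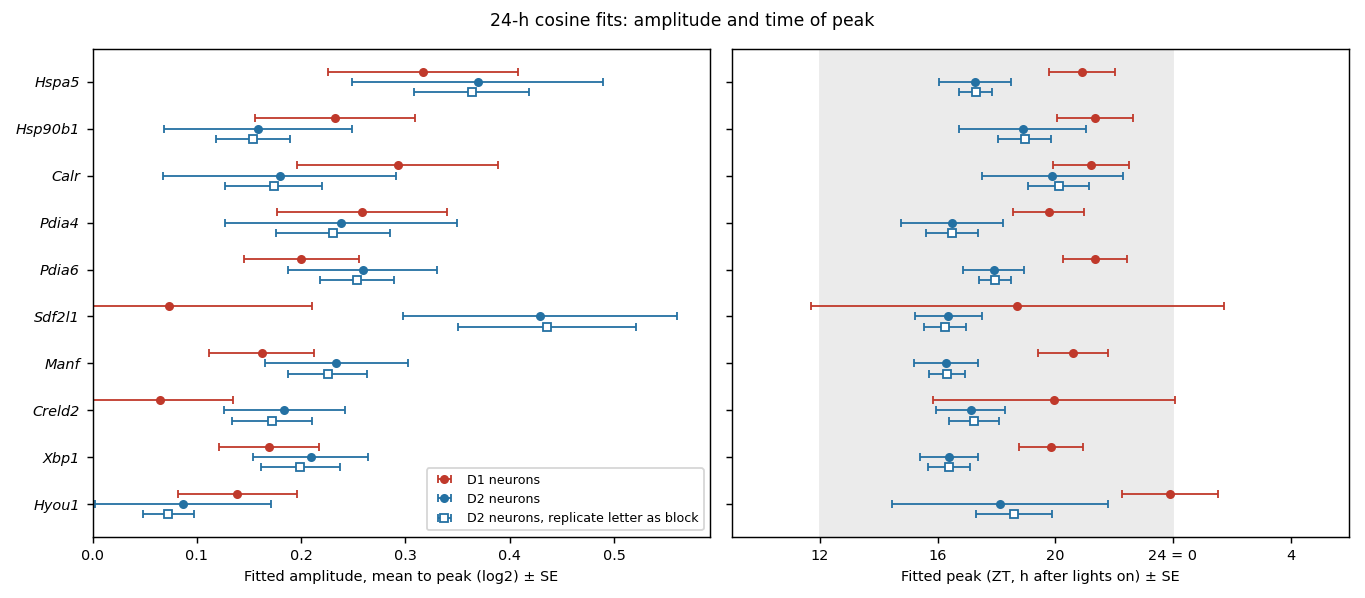
Fitted 24-h rhythms of the 10 members: log2 amplitude, mean to peak (left) and time of peak in ZT hours (right), bars ± SE. Filled points are fits without the letter block (D1 red, D2 blue) and open squares the D2 fit with it, which has shorter bars (Hspa5 in D2: 0.37, SE 0.121 without the block and 0.36, SE 0.0548 with it); the shaded area is the dark phase.

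In D1 neurons all 10 members had their lowest mean at ZT6 or ZT10 and their highest at ZT14, ZT22 or ZT2. ZT22 was the highest for Calr and Hsp90b1 alone (443 and 557 CPM), with 1 of the 3 libraries with many genes at 0, male B, among them. By median both were lower at ZT22 (340 and 455 CPM) than at ZT2 (397 and 505 CPM). Without the letter block none of the 10 was called rhythmic (edgeR), against 0.495% of all genes. 7 of the 10 had an unadjusted p under 0.05, against 12.6% of all genes. Without the 3 D1 male libraries none was called, against 1.23% of all genes, and 4 of 10 had an unadjusted p under 0.05, against 13.9%. The median amplitude was 0.18 over the members and 0.09 over all genes. Over all D1 libraries the fitted peaks lay between ZT18.7 and ZT23.9. Without the 3 D1 male libraries the peak of Hyou1 was at ZT0.50, in the light phase, and those of Calr and Hsp90b1 were at ZT22.3 and ZT22.2. With the 6 times as separate levels, Xbp1 was called (edgeR adjusted p = 0.0248) and the other 9 were not, against 0.181% of all genes. The cosine fit with the letter as a block called Hspa5, Hsp90b1, Calr and Pdia4 in D1 neurons (edgeR adjusted p = 0.0369, 0.0236, 0.0444 and 0.0369). With that block and without the 3 D1 male libraries none was called. The share of all genes for the block over all D1 libraries is given in the last section. That for the block without the 3 libraries is not given here.

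Xbp1 in D1 neurons lay between 28.3 and 39.7 CPM at ZT6 (median 34.0, n = 8), 30.4 and 44.7 CPM at ZT10 (median 32.3, n = 8), and 41.5 and 49.4 CPM at ZT14 (median 46.9, n = 7). All ZT14 libraries were above all ZT6 libraries. Its level was 39.0 to 55.1 CPM at ZT2 (median 43.9, n = 8), so that its 2 highest medians were early in the dark phase and early in the light phase, and the cosine fit gave an amplitude of 0.17 with a peak at ZT19.9 (edgeR adjusted p = 0.203). The highest ZT10 library was one of the 3 with many genes at 0, male B, at 44.7 CPM; the other 3 males there had a mean of 32.0 CPM.

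Hspa5 in D1 neurons lay between 135 and 287 CPM at ZT10 (median 213, n = 8), 280 and 460 CPM at ZT14 (median 311, n = 7), and 225 and 567 CPM at ZT2 (median 371, n = 8). The ZT10 and ZT14 ranges overlapped only between 280 and 287 CPM. The amplitude was 0.32 (SE 0.091) with a peak at ZT20.9, a 1.55-fold change from trough to peak (edgeR adjusted p = 0.217). By letter, the amplitude ran from 0.10 in letter A to 0.49 in letter B, with peaks from ZT19.4 to ZT21.1.

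Pdia4, Pdia6 and Manf also had their highest D1 mean at ZT14 or ZT2. Pdia4 means were 67.5 ± 15.8 CPM at ZT6 (SD, n = 8) and 103 ± 19.0 CPM at ZT14 (SD, n = 7). Pdia6 means were 69.4 ± 11.9 CPM at ZT10 and 103 ± 13.9 CPM at ZT2 (SD, n = 8 each), and Manf means 26.9 ± 4.19 and 36.4 ± 5.42 CPM at the same times (SD, n = 8 each). Their edgeR adjusted p-values were 0.272, 0.181 and 0.256.

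Calr and Hsp90b1 reached their highest D1 levels in single libraries. At ZT22 Calr ran from 245 to 1216 CPM (median 340, n = 8) and Hsp90b1 from 370 to 1231 CPM (median 455, n = 8). The highest value of both was male B, where the other 3 males of that time averaged 308 and 439 CPM. All 10 members were higher in this library than the mean of those 3, by 1.37 to 3.94 times. The cosine fits gave amplitudes of 0.29 for Calr and 0.23 for Hsp90b1 (edgeR adjusted p = 0.278 and 0.275). Without the 3 libraries the amplitudes were 0.18 and 0.17 (edgeR adjusted p = 0.484 and 0.37).

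Sdf2l1, Creld2 and Hyou1 had the highest adjusted p-values in D1 neurons over all libraries, with amplitudes of 0.07, 0.06 and 0.14 (edgeR adjusted p = 0.942, 0.83 and 0.414). The value of Sdf2l1 rested on single libraries: its amplitude was 0.15 without letter B and 0.18 without the 3 D1 male libraries (edgeR adjusted p = 0.868 and 0.668). Sdf2l1 reached 12.4 CPM in D1 male ZT10 B, where the other 3 averaged 2.39 CPM, and fell to 0.915 CPM in D1 male ZT18 D, where the other 2 averaged 4.44 CPM.

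The fitted peak was later in D1 than in D2 neurons for all 10 members, for example ZT20.9 against ZT17.3 for Hspa5, ZT20.6 against ZT16.3 for Manf and ZT19.9 against ZT16.4 for Xbp1. Other peaks were poorly placed: the SE was 7.02 h for Sdf2l1 and 4.11 h for Creld2 in D1, and 3.68 h for Hyou1 in D2. With the letter block the peaks of Calr were at ZT20.3 in D1 and ZT20.1 in D2. The share of all genes with a later peak in D1 was not computed. The test of the difference in rhythm itself called none of the 10 members, against 0.0139% of all genes. The smallest adjusted p was that of Manf (edgeR adjusted p = 0.556, unadjusted 0.0392), followed by Xbp1 (edgeR adjusted p = 0.614); Manf was the 1 member of 10 with an unadjusted p under 0.05, against 8.46% of all genes. When each cell type had its own block by letter, 0 were called, against 3.24% of all genes, and 4 had an unadjusted p under 0.05 (Hspa5, Pdia6, Manf and Xbp1), against 23.9%; the smallest adjusted p was again that of Manf (edgeR adjusted p = 0.0935). DESeq2 called 0 of 10, against 0.223%. limma voom with quality weights, which changes the tool and also gives noisier libraries less weight, called 8 of 10 (all but Calr and Pdia4), against 15.8% of all genes.

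In the edgeR fit without a block, no member was called different in mean level between the cell types. All 10 estimates of D1 minus D2 were above 0, with a median of 0.14 on the log2 scale against -0.01 over all genes, but 0 passed the test, against 19.3% of all genes. 2 of 10 had an unadjusted p under 0.05, against 31.8%. Hspa5 had 297 ± 101 CPM in D1 (SD, n = 45; lowest 135, median 285, highest 567) and 266 ± 117 CPM in D2 neurons (SD, n = 46; lowest 125, median 246, highest 531), ranges that overlapped almost entirely. Its difference was 0.19 with a 95% interval from -0.03 to 0.40 (edgeR adjusted p = 0.229). Hyou1 had 113 ± 23.3 and 101 ± 27.8 CPM (SD, n = 45 and 46), a difference of 0.16 with an interval from 0.02 to 0.31 (edgeR adjusted p = 0.109), and Pdia6 a difference of 0.14 from 0.01 to 0.27 (edgeR adjusted p = 0.12). With the letter as a block in all libraries, Hspa5, Hsp90b1, Calr, Pdia6 and Hyou1 were called higher in D1 neurons, 5 of 10 against 22.7% of all genes called in that direction (edgeR adjusted p = 3.44e-04 for Hyou1). That block fits each letter as the same shift in both cell types, whereas the difference between cell types changed with the letter, as given below. Its p-values do not account for that change. limma voom with quality weights called 8 of 10 higher in D1, against 29.9%. Without the 3 D1 male libraries and without the block the difference of Calr went from 0.18 to 0.07 and that of Hsp90b1 from 0.17 to 0.09.

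Within letters the sign was not constant. In letter A all 10 members were lower in D1 than in D2 neurons, by 0.16 (Pdia6) to 0.41 (Calr) on the log2 scale. In letters C and D all 10 were higher in D1: Hspa5 by 0.40 and 0.48, Calr by 0.34 and 0.59, and Hyou1 by 0.38 and 0.47. In letter B differences lay between -0.004 (Xbp1) and 0.30 (Calr). Without letter A, 8 of 10 members were called higher in D1 neurons (all but Sdf2l1 and Creld2), against 24.9% of all genes called in that direction, with Hspa5 at 0.37 (edgeR adjusted p = 0.0126).

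**Figure D3:**
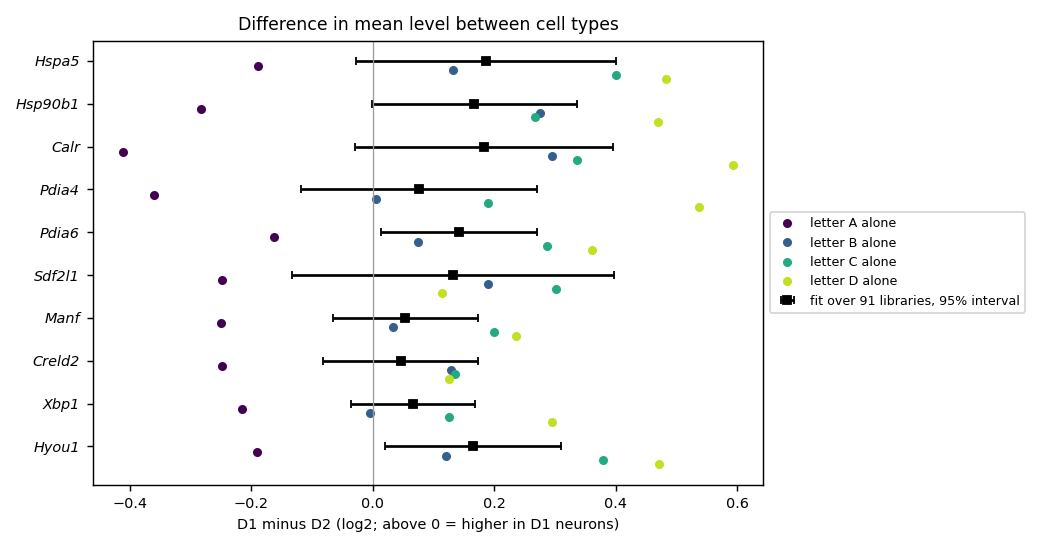
Difference in mean level, D1 minus D2 on the log2 scale, for each member. Black squares are the fit over 91 libraries with 95% intervals and coloured points the difference of mean log2(CPM + 1) within letters A to D; letter A lies below 0 for all 10 members (Calr at -0.41) and letters C and D above 0.

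The letter accounted for more of the members' spread in D2 than the time of day did. It took 40.4% (Xbp1) to 88.7% (Hyou1) of the variance of the members' log2 levels in D2 neurons, with a median of 61.2%, and time took 3.61% to 37.7% (median 24.0%). In D1 neurons the letter took 15.7% to 36.4% (median 27.8%) and time 14.7% to 51.8% (median 27.4%). Xbp1 had the highest share by time in both cell types. Shares over all genes were not computed, so these values describe the members alone.

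Among D2 libraries, letters A and B were high and C and D low. Hyou1 lay between 118 and 151 CPM in letter A (n = 12), 102 and 145 in B (n = 10), 64.6 and 90.99 in C (n = 12) and 62.9 and 91.9 in D (n = 12), so that no library of A or B overlapped one of C or D. Hspa5 averaged 370 ± 109, 347 ± 81.7, 175 ± 50.5 and 187 ± 48.5 CPM in A, B, C and D (SD, n = 12, 10, 12 and 12). Calr averaged 445 ± 74.0, 403 ± 89.2, 208 ± 33.8 and 237 ± 58.3 CPM in the same order. Total counts ran along with the letters: 19727033 ± 3011572 in A, 16241681 ± 3878526 in B, 11336342 ± 1749182 in C and 10904585 ± 1753165 in D (SD). The part of depth in the difference between letters was not tested. In D1 neurons letter B stood highest, with Hspa5 at 387 ± 122 CPM (SD, n = 9) against 318 ± 67.7 in A (n = 12), 236 ± 83.0 in C (n = 12) and 266 ± 81.3 in D (n = 11).

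**Figure D4:**
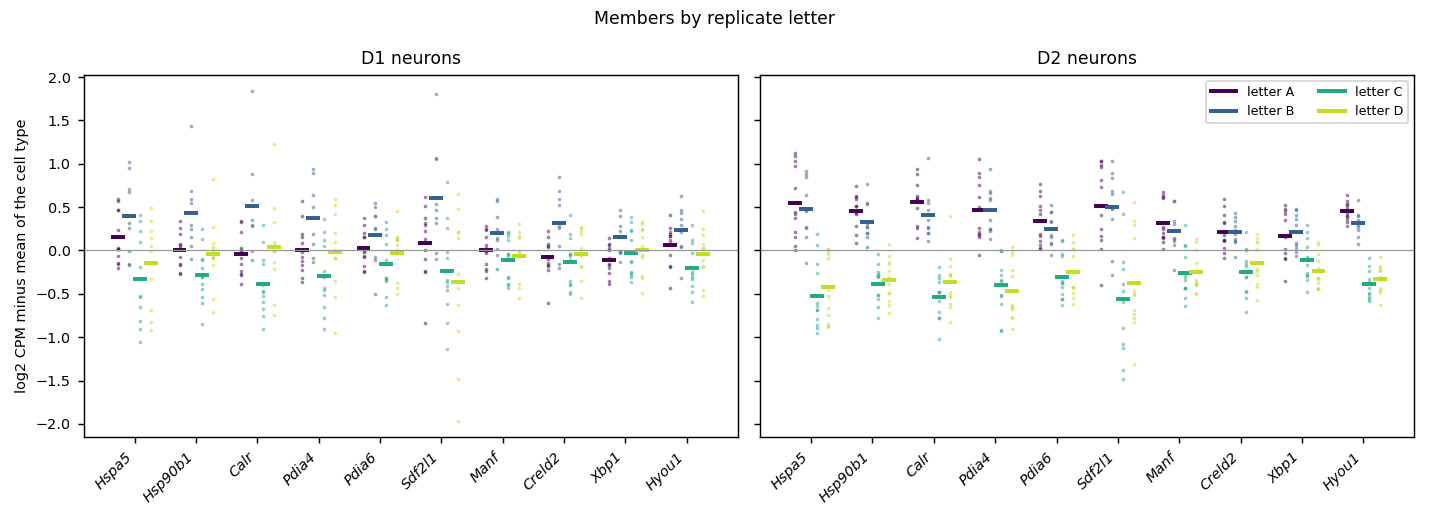
Level of each member by replicate letter A to D, as log2 CPM minus the mean of the cell type. Points are libraries and bars letter means (D1 left, D2 right; the single D1 library of letter E is not drawn); in D2 neurons A and B lie above the mean and C and D below it for all 10 members, as with Hspa5 at 370 and 347 against 175 and 187 CPM.

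The members' levels correlated from library to library. After group means were removed, all 45 pairs correlated above 0 in both cell types, with a median Pearson r of 0.744 in D1 (n = 45 libraries) and 0.884 in D2 neurons (n = 46), against -0.06 and -0.01 between members and all other genes. With the letter removed as well, the medians were 0.618 and 0.637. Without the 3 D1 male libraries the D1 medians were 0.748 and 0.67. Of the r to all other genes before the letter was removed, 46.75% in D1 and 49.85% in D2 were above 0. Their median lies near 0 because the signs cancel, so it does not show how strongly other pairs of genes correlate. The points share library, depth and pull-down, and r is given as a description.

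Hsp90b1 and Calr were the closest pair in both cell types with the letter removed (r = 0.965 in D1 and 0.927 in D2). Hspa5 went closely with both isomerases, with Pdia4 at 0.885 and 0.903 and with Pdia6 at 0.874 and 0.914. Sdf2l1 held the lowest pair in each cell type, with r = 0.05 with Hyou1 in D1 and 0.17 with Creld2 in D2; without the 3 D1 male libraries its pair with Hyou1 was at 0.321, still the lowest in D1. It is also the member with the fewest counts.

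**Figure D5:**
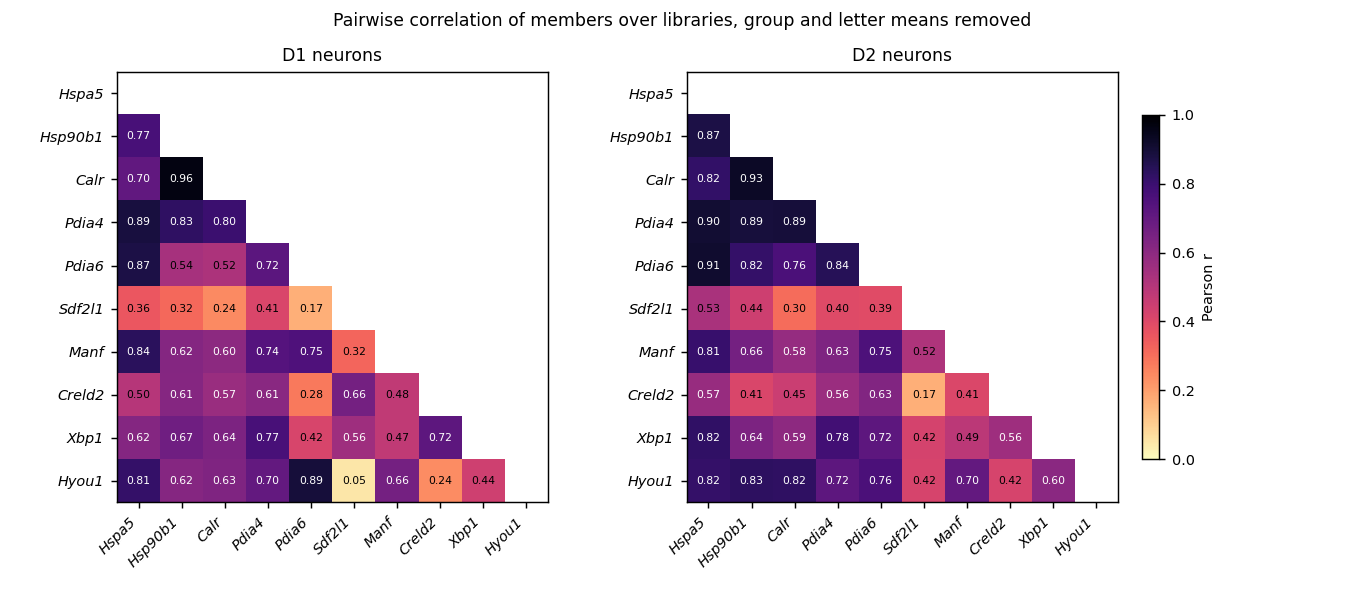
Pearson r between members over libraries, after group and letter means were removed (D1 left, 45 libraries; D2 right, 46 libraries); darker is higher, on a scale from 0 to 1. Hsp90b1 with Calr is the darkest cell in both (0.965 and 0.927). The palest is Sdf2l1 with Hyou1 in D1 (0.05) and Sdf2l1 with Creld2 in D2 (0.17).

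Over the 24 group means, 2 genes outside the set, of 9800 with a mean of at least 10 CPM, followed the members' mean profile most closely: ENSMUSG00000027248 (r = 0.955, mean 162 CPM) and ENSMUSG00000048578 (r = 0.95, mean 94.6 CPM). The files do not pair these identifiers with names. Among the members themselves r to that profile ran from 0.792 (Sdf2l1) to 0.977 (Hspa5). Each member is part of the profile, which raises its r, so these values do not compare with those of the 2 genes outside the set.

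In edgeR without a block, no member was called different between the sexes in either cell type. In D1 neurons all 10 estimates were higher in males, with a median of 0.10 on the log2 scale. The median and direction over all genes are not given here, so this describes the members alone. None of the 10 was called (edgeR), against 0.0418% of all genes. Calr and Hsp90b1, 2 of 10, had an unadjusted p under 0.05, against 15.5%. Calr lay between 181 and 628 CPM in D1 females (median 306, n = 23) and between 202 and 1216 CPM in D1 males (median 355, n = 22), a difference of 0.36 (SE 0.138; edgeR adjusted p = 0.237). Hsp90b1 was at 435 ± 119 CPM in females (SD, n = 23) and 520 ± 190 CPM in males (SD, n = 22), a difference of 0.26 (SE 0.11; edgeR adjusted p = 0.266). For both the highest male value was the ZT22 library B, one of the 3 with many genes at 0. Without the 3 libraries the differences were 0.14 for Calr and 0.10 for Hsp90b1 (edgeR adjusted p = 0.741 and 0.755), Creld2 was at -0.003, none was called, against 0.0348% of all genes, and 0 of 10 had an unadjusted p under 0.05, against 6.92%.

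In D2 neurons 9 of 10 estimates were above 0 and Xbp1 was at -0.03, again without the direction over all genes beside it. None of the 10 was called without the block (against 0.216% of all genes) or with it (against 9.45%) in edgeR. Without the block 0 of 10 had an unadjusted p under 0.05, against 3.59%, and 2 of 10 (Manf and Hyou1) with it, against 28.2%. Hspa5 was at 256 ± 109 CPM in D2 females and 277 ± 126 CPM in D2 males (SD, n = 23 each), a difference of 0.13 with a 95% interval from -0.20 to 0.47, and of 0.10 from -0.05 to 0.25 with the block. The rhythm of no member differed between the sexes in D1 (against 0% of all genes called) or in D2 neurons (0% without the block and 0.0209% with it) in edgeR. At an unadjusted p under 0.05 the count without the block was 0 of 10 in both, against 1.57% of all genes in D1 and 2.71% in D2, and with the block it was 1 of 10 in D2 (Hsp90b1), against 13.7%.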

How the data were processed

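Ribosome-associated mRNA of D1 and D2 neurons was measured in 91 libraries. The authors deposited raw counts per gene for 14355 Ensembl identifiers; per the submitters' processing notes the tools were FastQC 0.11.7, HTSeq 0.10.0 and HISAT2, whose version the sources used here leave out, and GRCm38 and GRCh38 are named without roles. By its name the deposited file was filtered on log CPM, and all 10 members passed. The members' symbols come from the rule that set the list. No table at hand pairs the identifiers with symbols, so lists of other pathway genes and of cell type markers could not be scored.

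Counts were fitted in R 4.3.3 with edgeR 4.0.16 (TMM, quasi-likelihood F-test), with a mean, cosine and sine term (24 h) for each sex, in D1, D2 and all libraries, and Benjamini-Hochberg adjustment over 14355 genes at 0.05. CPM use TMM-adjusted totals. Values within letters use log2(CPM + 1). Of 243 same-letter D2 pairs 100% correlated over 0.1 in their deviations from group means (median 0.743, lowest 0.217); in D1 69.96% of 223 did, so letters were treated as pairing D2 libraries alone. No library of a group was a copy of another (lowest mean chi-square per gene 4.24 over 129 pairs). The scripts were tested on simulated data without a letter effect and with the fits without a block, so the blocked fits were not covered. Alternatives used DESeq2 1.42.0 and limma 3.58.1 among others. All members were to be described, called or not, with the 2 genes most like them, and members and lists were chosen with earlier results of these data known.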

Additional observations from a re-analysis of the deposited data

Results flagged for a closer look

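Among groups of 4 libraries, 190 tests of the highest or lowest library (gap to the nearest over the range above 0.829) set 11 values apart; chance sets apart about 1 in 20. 6 of the 11 belong to 2 of the libraries with many genes at 0. In D1 male ZT22 B these were Calr at 1216 CPM (others 245 to 342), Hsp90b1 at 1231 CPM (others 370 to 478), Creld2 at 22.0 CPM (others 12.1 to 12.6) and Sdf2l1 at 7.43 CPM (others 2.65 to 3.03). In D1 male ZT10 B they were Creld2 at 24.5 CPM (others 10.4 to 12.1) and Xbp1 at 44.7 CPM (others 31.2 to 32.9).

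The other 5 were Hspa5 in D1 female ZT14 B at 460 CPM (others 285 to 311), Creld2 in D1 female ZT2 B at 20.5 CPM (others 13.1 to 14.2), Pdia4 in D2 male ZT14 B at 123 CPM (others 74.7 to 79.9), Sdf2l1 in D1 male ZT2 C at 6.16 CPM (others 4.14 to 4.45), and, as the only low value, Sdf2l1 in D1 female ZT14 C at 3.53 CPM (others 4.91 to 5.08).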

How the results depend on the processing

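The edgeR fit reported first (all libraries, cosine, no block) called 0 members in each comparison, so no call could be lost under an alternative, and DESeq2 called 0 in each but rhythm in D2. Over 910 values of single members (rhythms, cell type and sex differences; without differences in rhythm and without time as a factor), 144 passed the threshold under an alternative and 766 did not; 32 uncalled estimates changed direction, 23 of them in the sex comparison in D2. Same-letter libraries deviated together less in D1 than in D2 neurons (69.96% of D1 pairs correlated over 0.1, median r 0.23, against 100% and 0.743 in D2). The block combined with leaving out letters or libraries, with time as a factor or with DESeq2 was chosen after seeing the data. D1 minus D2 gave 8 called with limma voom with quality weights, 1 with a least squares cosinor, 4 with depth as a covariate, 5 with the replicate block (38.1% of all genes called), 5 with the block and without the 3 D1 male libraries, and 5 with the block in DESeq2; leaving out single letters gave 0 to 8 (8 without A), and with the block 0 to 10 (10 without A, 4 without B, 0 without C or D). Rhythm in D1 gave 1 with voom, 1 with time as a factor, 4 with the block (1.13% of all genes; Hspa5, Hsp90b1, Calr and Pdia4), 0 with the block and without the 3 libraries, 5 with the block and time as a factor (0.327%), 7 with the block in DESeq2, and 0 to 1 with the block and single letters left out (1 without A, 0 without B, C or D). Rhythm in D2 gave 2 with DESeq2, 10 with voom, 1 with least squares, 6 with depth as a covariate, 9 with the block, 8 with block and time as a factor, 9 with the block in DESeq2, 0 to 2 with letters left out (2 without A) and 5 to 10 with the block and letters left out. The difference in rhythm between cell types gave 8 with voom and 0 with the block. Sex in D1 gave 2 with the block (Hsp90b1 and Calr, 7.26% of all genes), 0 with the block and without the 3 libraries, 3 with the block in DESeq2, 3 with the block and time as a factor (Hsp90b1, Calr and Pdia4), and 0 to 3 with the block and letters left out (2 without A, 3 without B, 0 without C or D). The cause was not tested. Settings also differ in how many genes they call: for rhythm in D2 it was 2.94% of all genes without the block and 22.3% with it. Counts without a share of all genes beside them describe the members alone and cannot be told from a general rise in calls. filterByExpr kept all 10 members and changed no call. Their values were the same in D2 and in all libraries. In D1, where it removed other genes, they moved slightly (Sdf2l1 amplitude 0.07282 without and 0.07277 with the filter). Sdf2l1, with 7 to 148 counts per library, is the member whose depth limits it most.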
